A study of Mus musculus with 28 samples.

Results

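Forkhead binding around Otx2 was described from every event within 50 kb of either end of the gene, with the events within 200 kb as a wider view. Of the 162571 events in the 14 lists used, 87 lay within 50 kb and 148 within 200 kb. The locus was chosen by the positions of the events themselves, since the factors studied have events at a common place near this gene. The event counts, positions and scores below are therefore a description and carry no test. An event is a 1 bp position at which the caller placed the factor. Of the combined events, the farthest one inside the 50 kb limit lay 47414 bp from the gene and the nearest one outside it 62161 bp.

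The events come from ChIP-exo, in which an exonuclease trims immunoprecipitated chromatin back to the crosslinked protein. The cells were mouse embryonic stem (ES) cells of the MC1 line (129S6/SvEvTac). Each line carried 1 transcription factor at Rosa26, with a His6-FLAG tag at its C terminus, that doxycycline (Dox) represses and that was induced by washing Dox out. The cells then grew in a differentiation medium until crosslinking, so time after Dox removal was also time in that medium. The combined lists held FoxA1 (3 libraries), FoxC1, FoxL2 and FoxP3 (2 libraries each) at 24 h. Each names its factor alone and was read as the joint list of that factor's libraries. All were made with anti-FLAG except 1 FoxA1 library, made with anti-FoxA1. A FoxA1 time course covered 0, 6, 12, 24 and 48 h after Dox removal, with 1 library and 1 list for each time and each of the antibodies anti-FLAG and anti-FoxA1. Anti-FLAG is directed at the tag of the transgene, while anti-FoxA1 can also read the cells' own FoxA1. The empty control line at 0 h has no list used here. How many clones a line came from is not stated in the labels. Event lists hold no expression, so the labelled cell type was not checked against marker genes.

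OTX2 is a homeodomain factor that ES cells use when they leave the naive state for the formative and primed states of the epiblast. In the embryo it acts in the anterior visceral endoderm and in the forebrain and midbrain, and later in the retina, pineal gland and choroid plexus. Forkhead factors bind DNA through a winged helix that reads a short motif with TGTTT at its core. FoxA1 is a pioneer factor of endoderm and liver, FoxC1 acts in mesoderm and mesenchyme, FoxL2 in ovarian granulosa cells, and FoxP3 in regulatory T cells. Pioneer factors can engage their sites in closed chromatin.

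Otx2 (gene ID 18424) lies on the minus strand of chromosome 14, 48656781–48667644 on mm10. Positions are given below relative to its most upstream annotated start at 48667644. RefSeq (GRCm38.p6, the same build) gives 4 start sites, and the 250 bases before the first and the last are shown because the gene's own FoxA1 event falls between the third and the last. They are chr14:48667645-48667894 and chr14:48662735-48662984, both on the minus strand and of the reference strain. Capitals mark TGTTT or its reverse complement, AAACA.
Otx2 start 1: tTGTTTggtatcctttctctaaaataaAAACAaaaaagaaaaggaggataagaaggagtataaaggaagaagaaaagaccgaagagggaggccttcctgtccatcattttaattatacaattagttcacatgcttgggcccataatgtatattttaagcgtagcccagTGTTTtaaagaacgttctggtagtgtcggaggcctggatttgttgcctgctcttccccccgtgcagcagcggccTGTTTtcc
Otx2 start 4: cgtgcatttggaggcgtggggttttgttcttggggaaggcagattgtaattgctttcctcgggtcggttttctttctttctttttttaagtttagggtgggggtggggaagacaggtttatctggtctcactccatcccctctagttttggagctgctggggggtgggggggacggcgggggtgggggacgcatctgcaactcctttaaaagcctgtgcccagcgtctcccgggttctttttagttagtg

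The 5-base core occurred 4 times before the first start and 0 times before the last, on either strand. It is found in 46.4% of the 32851 RefSeq promoter windows of this length. Of the longer Forkhead forms, TGTTTAC is found in 3.17% of windows on either strand, and TGTTTGC is found in 4.30% of them. On the same count TATTTAC stands in 2.73%, and the form TATTTGC stands in 2.50%. None of these longer forms (11.9% of windows hold at least 1) was in any of the 4 Otx2 windows. No event of any list fell in these 4 windows. The nearest combined event to the last start was a FoxA1 event 365 bp upstream of it, and the nearest to the first start was a FoxL2 event 1198 bp into the gene. The sequence under the distal events was not analysed here.

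All 4 factors had events within 50 kb of Otx2 at 24 h, 30 in all, and the factor with the most was FoxL2. FoxL2 had 12 events, FoxA1 8, FoxC1 5 and FoxP3 5. By list, 30.9% of the 21887 protein-coding genes had a FoxL2 event within 50 kb, 73.4% a FoxA1 event, 7.26% a FoxC1 event and 20.6% a FoxP3 event. Events of all 4 factors, at any place within 50 kb, were found for 3.19% of genes. A FoxA1 event was thus found near most genes, and events of all 4 factors near few.

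Counted from the gene ends at 50 kb, the FoxL2 count at Otx2 was the highest of any protein-coding gene. The next genes in that order were Mtus1 with 11 FoxL2 events, Mta3 and Pcm1 with 8 each and a group with 7. The median gene had 0 FoxL2 events. Measured without genes, no window of the same length (110864 bp) anywhere on the nuclear chromosomes held more than 13 FoxL2 events, and the window with 13 overlapped Otx2. There was 1 other region with a window of 12. The place of Otx2 in this order depended on weak events and on how the window was drawn. With only the FoxL2 events at or above the median score of their list, Otx2 kept 5, and 8 genes had more. With the 100 kb window Otx2 had 13 and 2 genes had more. Counted over the whole gene interval with 50 kb on each side, Otx2 had 12 and 2 genes had more, the highest with 18. With every list shortened by score to the length of the FoxC1 list, Otx2 had 1 FoxL2 event and 143 genes had more.

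FoxC1 and FoxP3 counts at Otx2 were also near the top of their lists, and the FoxA1 count less so. For FoxC1, 3 genes had more than the 5 events at Otx2, namely Nlrp12 with 14 and AU018091 and Ninj2 with 8 each. For FoxP3, 30 genes had more than 5. For FoxA1, 732 genes had more than 8, and the highest, Irf2bpl, had 33. The median gene had 0 FoxC1, 0 FoxP3 and 2 FoxA1 events. Genes of 5 to 20 kb have windows close in length to that of Otx2, which is 10864 bp long. Among these 6815 genes, 0 had more FoxL2 events than Otx2, 1 had more FoxC1 events, 7 had more FoxP3 events and 124 had more FoxA1 events. The genes named for comparison here were picked after their values were seen.

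**Figure D1:**
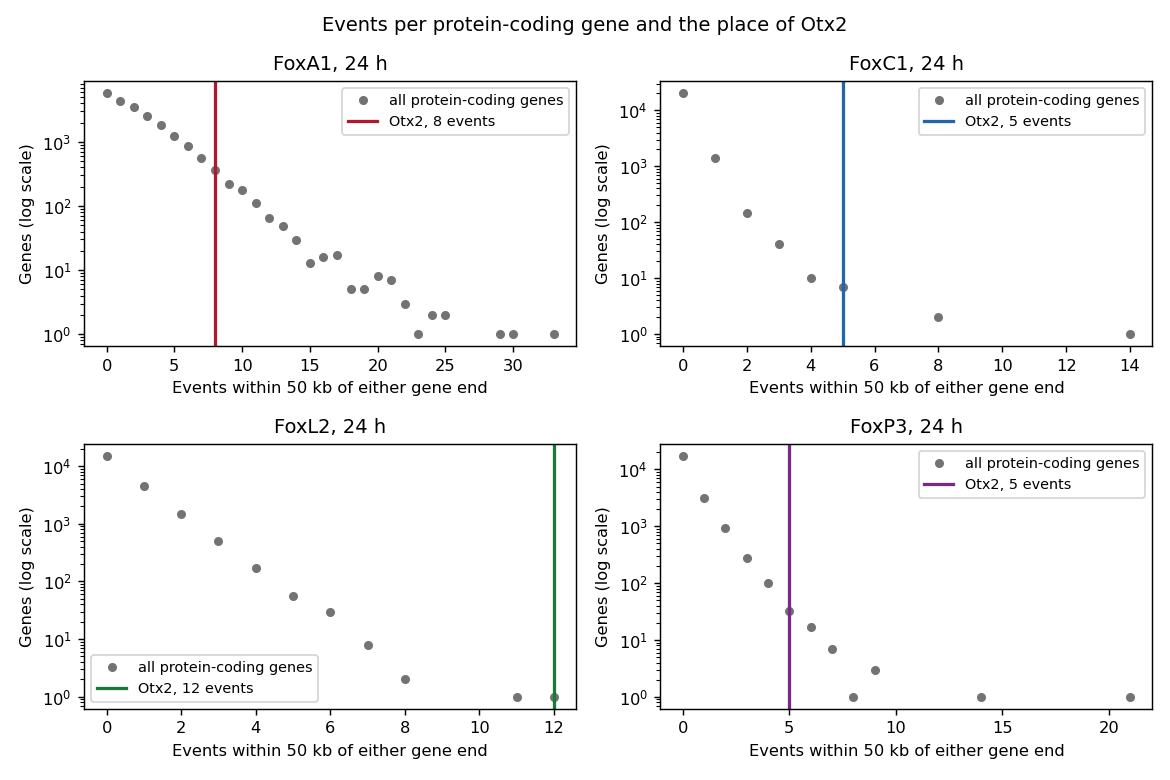
Number of protein-coding genes (vertical, log scale) against the number of events within 50 kb of either gene end (horizontal) in the combined list of each factor, with a coloured line at Otx2. Otx2 stands at the far end for FoxL2 with 12 events, near it for FoxC1 and FoxP3 with 5 each, and well inside the range for FoxA1 with 8.

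Of the 30 combined events, 16 lay upstream of the gene, 2 inside it and 12 downstream. All 16 upstream events fell within Otx2os1, a long noncoding RNA gene at 48669288–48793348 whose nearer end is 1644 bp from the first Otx2 start. Some of them also fell within Gm38660, another noncoding gene. The nearest protein-coding neighbour, Tmem260, which encodes a transmembrane protein, ends 96598 bp from Otx2. No other protein-coding gene shared any of these events within 50 kb.

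**Figure D2:**
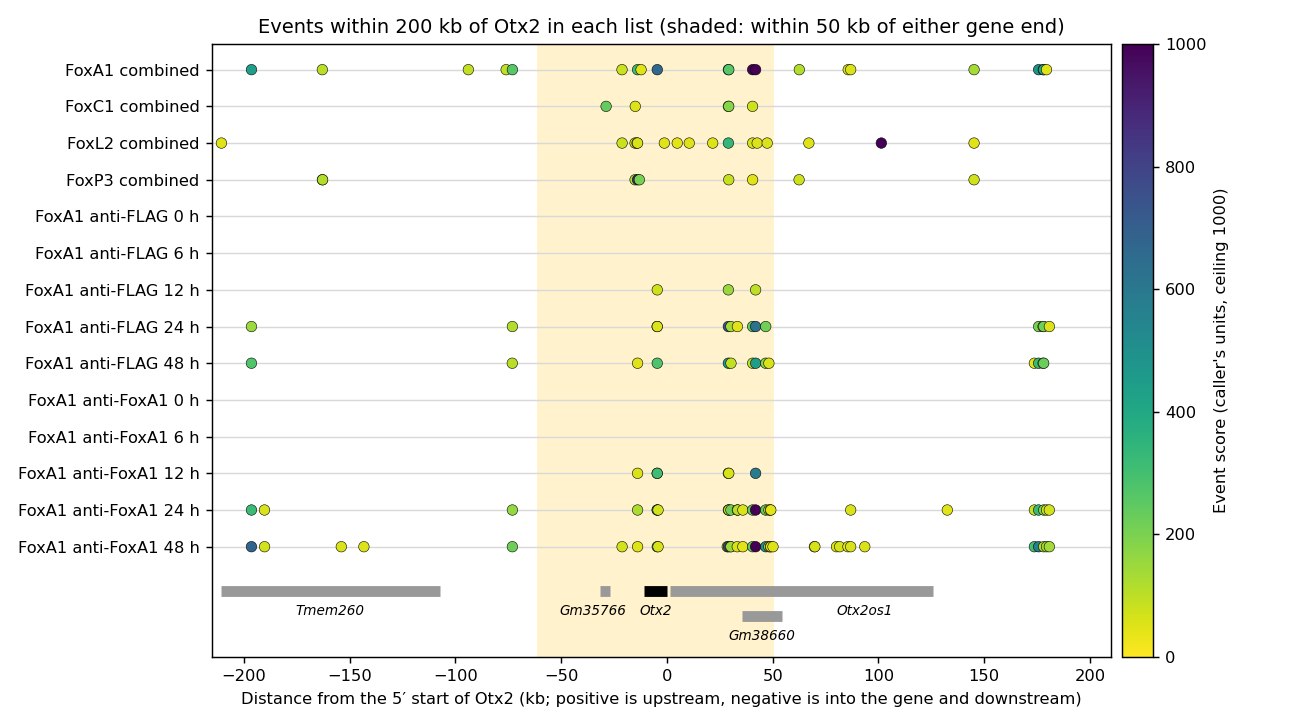
Events within 200 kb of Otx2, 1 row per list, against distance from the 5′ start in kb (positive is upstream), coloured by score, with genes as bars below. Events of all 4 factors gather downstream of the gene and about 29 and 40.5 kb upstream, and the lists of 0 and 6 h hold none.

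The scores of these events differed by factor. Scores are the caller's, run up to 1000, and have no stated scale, so each is read against its own list. FoxA1 scores near Otx2 ranged from 48 to 1000 with a median of 390, against 106 for the whole FoxA1 list. FoxC1 scores ranged from 51 to 237 with a median of 143, against 70 for its list. FoxP3 scores ranged from 47 to 894 with a median of 126, against 81. FoxL2 scores ranged from 43 to 338 with a median of 57, against 59. At or above their list's median were 6 of 8 FoxA1 events, 4 of 5 FoxC1, 4 of 5 FoxP3 and 5 of 12 FoxL2. FoxL2 thus had the most events and the smallest share of them at or above its list's median.

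**Figure D3:**
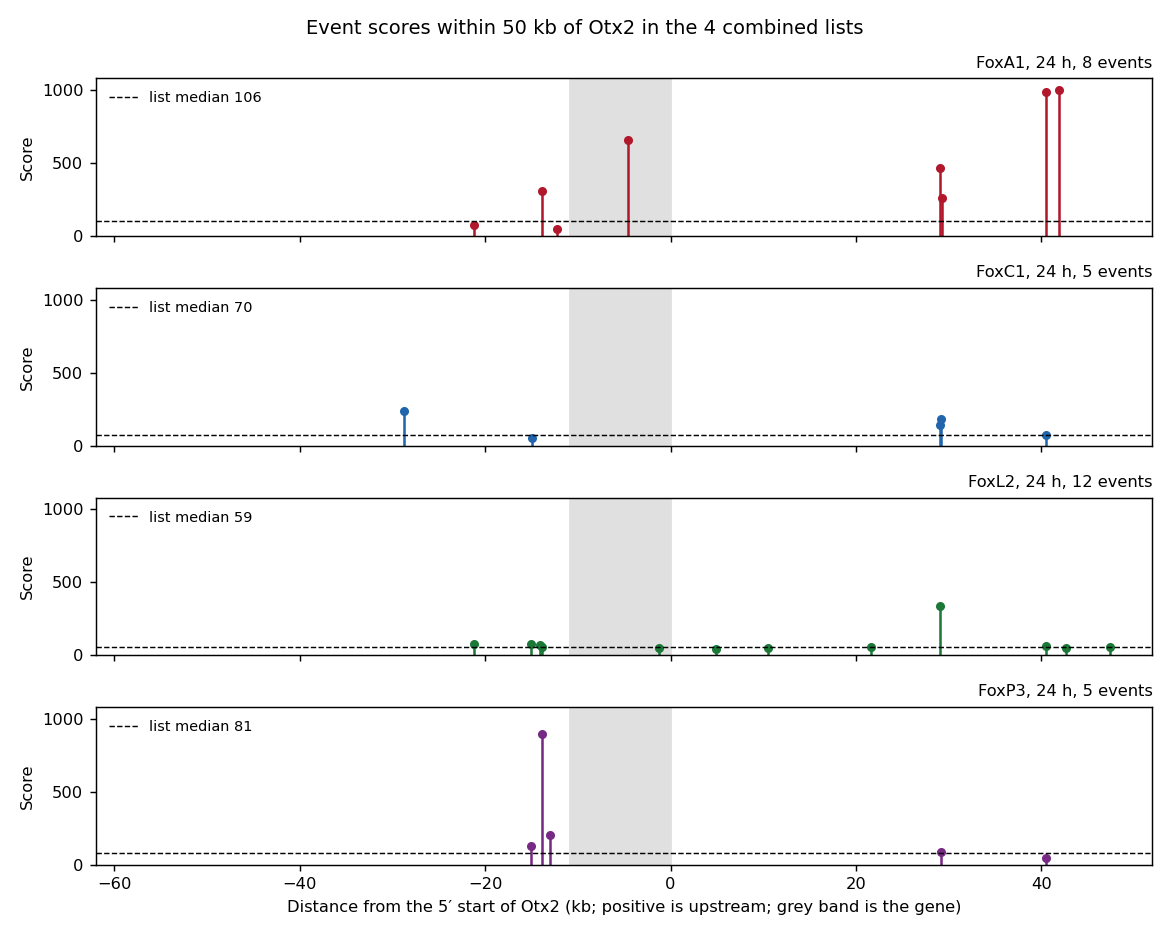
Score of each event (vertical) against distance from the 5′ start of Otx2 in kb (horizontal, positive is upstream) in the combined lists, with the list's median as a dashed line. FoxA1 is highest 40.5 and 41.9 kb upstream, FoxP3 3000 bp beyond the 3′ end, and 11 of the 12 FoxL2 events stay at or below 80.

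Joined where events lay within 100 bp of each other, the 30 events made 18 sites. A single list held 12 of them, 2 lists shared 1, 3 lists shared 4, and 1 had every factor. The shares of sites in 2 or more lists were 33.3% near Otx2 (6 of 18) and 8.58% over all 40951 sites. The locus was chosen for a shared place, and the FoxA1 list is by far the longest, so these shares are not like for like. A FoxA1 event lay within 100 bp of 3 of 5 FoxC1, 3 of 5 FoxP3 and 4 of 12 FoxL2 events. For the whole lists it was 53.6%, 42.6% and 18.5%. Of the 8 FoxA1 events, 3 had FoxC1, 3 FoxP3 and 4 FoxL2 so near, against 1.94%, 5.85% and 4.19% of the FoxA1 list. FoxL2 alone made 7 of the 12 single-factor sites, with scores from 43 to 69. FoxA1 alone made 3, and FoxC1 and FoxP3 1 each.

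The place held by all 4 factors lay 40.5 kb upstream, in Otx2os1 and Gm38660, and spanned 42 bp. FoxC1 was at 48708134, FoxP3 at 48708155, FoxA1 at 48708173 and FoxL2 at 48708176. FoxA1 and FoxL2 were thus 3 bp apart there, and FoxC1 was 39 bp from FoxA1. The FoxA1 score was 985, at percentile 96.6 of its list. FoxC1 with 75 and FoxL2 with 63 were near the middle of their lists, both at percentile 54.3, and FoxP3 with 47 was low in its own, at percentile 9.98. The dataset holds 128 sites of all 4 factors, and 1.03% of protein-coding genes have one within 50 kb. Over these 128 sites the median scores were 512.5 for FoxA1, 97 for FoxC1, 111 for FoxL2 and 176.5 for FoxP3. Only 5 of the 128 sites, this one included, had a FoxP3 score of 47 or less, and 33 had a FoxL2 score of 63 or less. Among such sites the one near Otx2 was thus above the median for FoxA1 and at the low end for FoxP3.

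About 29 kb upstream, also in Otx2os1, the factors formed a pair of sites 192 bp apart by their FoxA1 events. The nearer one held FoxA1 at 48696705 with a score of 468, FoxL2 at 48696713 with 338 and FoxC1 at 48696714 with 143. The FoxL2 event there was the strongest of the 12 (percentile 97.7 of its list), with FoxA1 at percentile 89.3 and FoxC1 at 81.3 of theirs. The farther one held FoxP3 at 48696874 with a score of 86, FoxC1 at 48696879 with 180 and FoxA1 at 48696897 with 263. Their percentiles were 53.0, 87.0 and 78.9 of their own lists. FoxA1 and FoxC1 thus had an event at both, FoxL2 at the nearer and FoxP3 at the farther. With a distance of 200 bp the pair joined into a further place of all 4 factors, which made 2 near Otx2 and 151 in all.

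Downstream of the gene the highest score was a FoxP3 event's. FoxP3 had 3 events there, 2146 to 4178 bp beyond the 3′ end. The strongest, at 48653781, had a score of 894 and ranked 33 of 4385 in the FoxP3 list. FoxL2 at 48653783 with a score of 56 and FoxA1 at 48653788 with 312 were within 7 bp of it. At 48652603, FoxP3 with a score of 126 and FoxL2 with 76 had the same base, the only shared base of 2 combined lists near Otx2, and FoxC1 with 51 was 99 bp away. The FoxC1 event with the highest score near Otx2, 237, lay alone 17873 bp beyond the 3′ end, in the noncoding gene Gm35766. FoxA1 and FoxL2 also met farther on, 10347 and 10317 bp beyond the 3′ end, with scores of 79 and 80. These scores were at percentiles 35.5 and 68.1 of their own lists.

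**Figure D4:**
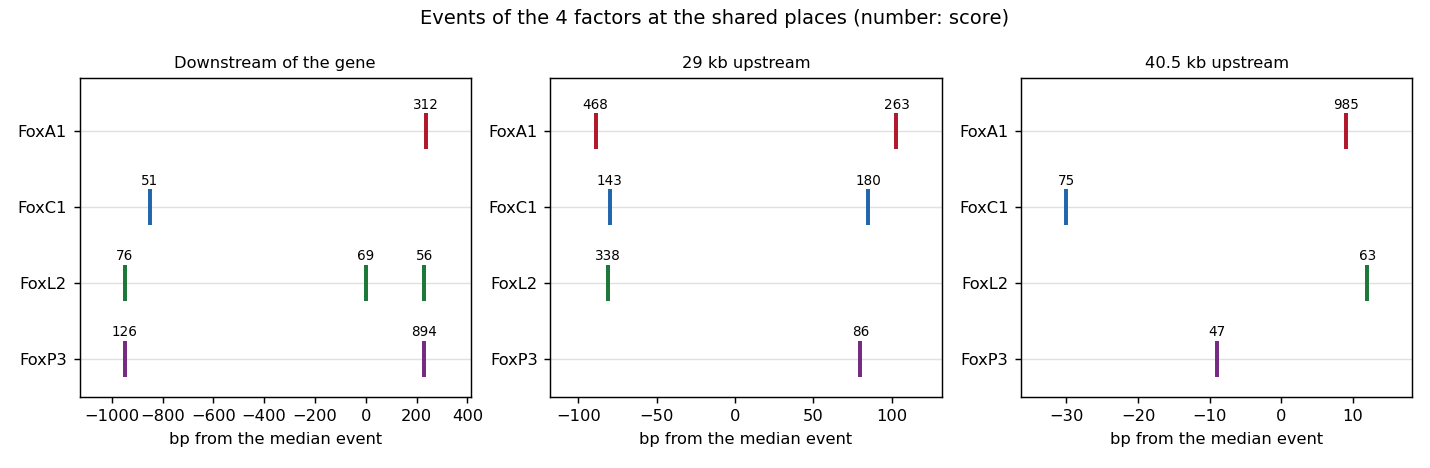
Events of the 4 combined lists at the shared places, 1 row per factor, against distance in bp from the median event of each panel, with the score above each mark. The scale differs between panels. FoxP3 has the highest score downstream (894) and FoxA1 40.5 kb upstream (985), and the pair at 29 kb holds 2 events each of FoxA1 and FoxC1.

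Inside Otx2 were 2 combined events. The FoxA1 event at 48663099 had a score of 661 (percentile 93.5) and lay 2010 bp downstream of the third start and 365 bp upstream of the last. The FoxL2 event at 48666446 had a score of 50 (percentile 24.5). The remaining FoxA1 sites without another factor were 41.9 kb upstream, at the ceiling of 1000, and 1338 bp beyond the 3′ end, with a score of 48.

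FoxA1 events near Otx2 were first called at 12 h after Dox removal. Neither antibody had an event within 200 kb at 0 or 6 h. These lists are short, with 15 to 86 events in all, and few genes had any of them within 50 kb. For anti-FLAG the share of genes was 0% at 0 h and 0.0411% at 6 h. For anti-FoxA1 it was 0.0731% at 0 h and 0.576% at 6 h. At these list lengths an event near Otx2 could have gone uncalled. At 12 h anti-FLAG had 3 events within 50 kb and anti-FoxA1 6, where 9.81% and 36.6% of genes had any. At 24 h they had 8 and 16, where 51.6% and 73.5% of genes had any. At 48 h they again had 8 and 16, where 49.1% and 76.6% of genes had any. The 8 anti-FLAG events of 24 h include 2 at 1 position, inside the gene. So do the 6 anti-FoxA1 events of 12 h and the 16 anti-FoxA1 events of 24 h. Within 200 kb anti-FLAG had 14 events at 24 h and 14 at 48 h, and anti-FoxA1 had 26 and then 34. Genes with at least as many events as Otx2 were 0.503% of all with anti-FoxA1 at 24 h, and 0.841% by 48 h. The same shares for anti-FLAG were 0.795% at 24 h and 0.352% at 48 h.

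Joined at 100 bp across the time-course lists, the FoxA1 events made 18 positions, of which 14 lay upstream, 2 inside the gene and 2 downstream. First called at 12 h were 5, at 24 h 10 and at 48 h 3. Over all 52475 positions of the courses, 15.6% were first called at 12 h, 54.4% at 24 h and 29.8% at 48 h. Of the 18, 16 were present at 48 h. The same share over all positions was not computed. The anti-FoxA1 list of 48 h, with 41726 events, is the longest of the lists used, so this count is not read as a trait of the locus.

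Positions called by both antibodies at 12, 24 and 48 h numbered 3. The first lay 41.9 kb upstream, without another factor. Its scores at 12, 24 and 48 h were 98, 624 and 446 with anti-FLAG and 587, 1000 and 1000 with anti-FoxA1. The second was the nearer site of the 29 kb pair, shared with FoxC1 and FoxL2. It scored 155, 735 and 453 with anti-FLAG and 389, 829 and 798 with anti-FoxA1. The third was the event inside the gene, before the last start. It scored 75, 580 and 280 with anti-FLAG and 305, 405 and 520 with anti-FoxA1. Where a list had 2 events there, as anti-FLAG did at 24 h and anti-FoxA1 at 12 and 24 h, the higher score is given. Scores are not on a scale known to be shared between lists, so no rise or fall over time is read from them.

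At the place of all 4 factors, FoxA1 was first called at 24 h. Its scores at 24 and 48 h were 235 and 101 with anti-FLAG and 241 and 230 with anti-FoxA1, while the combined FoxA1 list gave it 985. The farther site of the 29 kb pair was called with anti-FoxA1 at 12 h with a score of 59 and at 24 h with 90, and not at 48 h. The position beyond the 3′ end where FoxP3 scored highest had anti-FoxA1 scores of 57, 122 and 50 at 12, 24 and 48 h and an anti-FLAG score of 49 at 48 h alone.

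**Figure D5:**
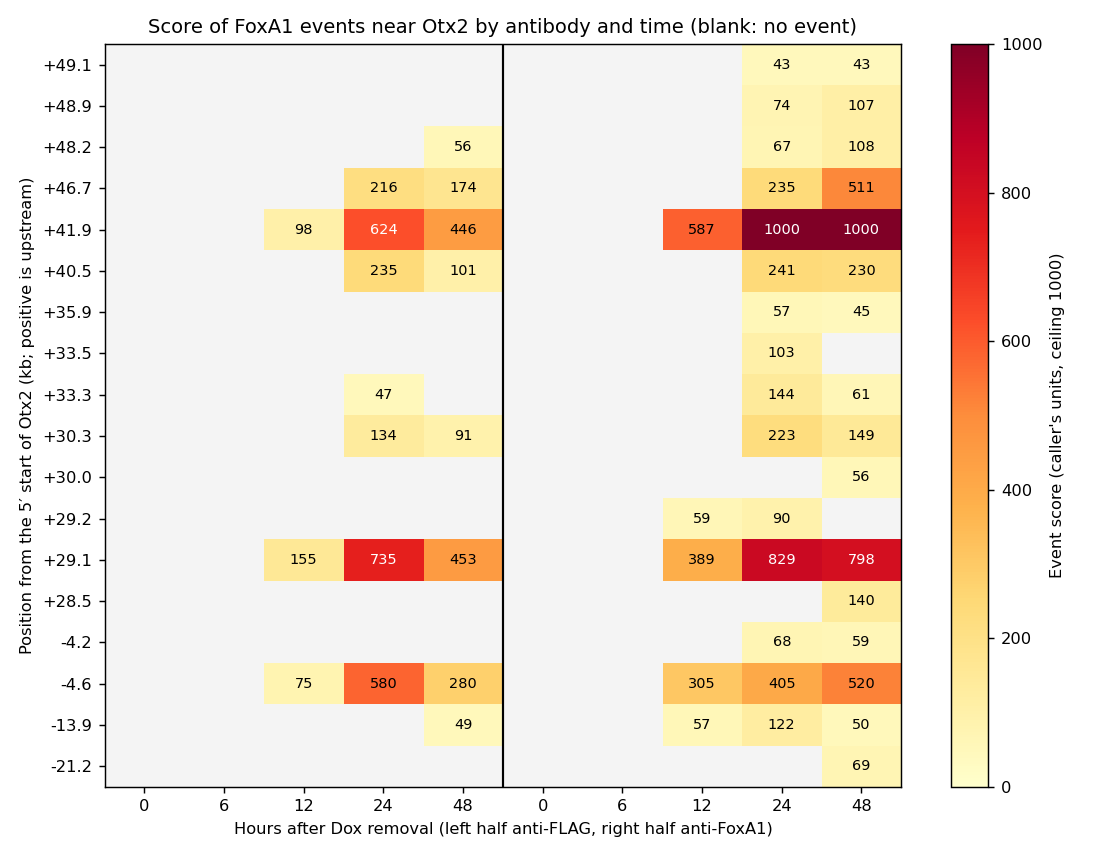
FoxA1 score at each of the 18 positions within 50 kb of Otx2 (rows, kb from the 5′ start, positive is upstream) by hours after Dox removal, with anti-FLAG on the left and anti-FoxA1 on the right. Both antibodies have 3 positions at 12, 24 and 48 h, at +41.9, +29.1 and -4.6 kb, and no position appears at 0 or 6 h.

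The antibodies differed in how many positions they called. Anti-FoxA1 called all 18 and anti-FLAG 9, all of them among those of anti-FoxA1. Of these 9, both antibodies called 7 at the same first time and anti-FLAG called 2 later. Over all positions of the courses, 33.7% were called by both. At 24 h all 8 anti-FLAG events had an anti-FoxA1 event within 100 bp, where 85.98% of the whole list did. At 48 h it was again 8 of 8, where 90.2% did. From 6 h on the anti-FoxA1 list was the longer one at each time, and the depth behind each is unknown.

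The combined FoxA1 list and the courses overlapped in part. Of the 8 combined events, 1 had no event of any course within 100 bp, the weak one beyond the 3′ end with a score of 48. Of the 18 course positions, 11 had no combined event. Among these 11 was the position 46.7 kb upstream, which both antibodies called at 24 and 48 h, with scores of 216 and 174 for anti-FLAG and 235 and 511 for anti-FoxA1. Another was 30.3 kb upstream, with 134 and 91 for anti-FLAG and 223 and 149 for anti-FoxA1. Of the 8 combined events, 6 lay at anti-FoxA1 events of 24 h and 4 at anti-FLAG events of 24 h, where 54.8% and 33.0% of the whole combined list did.

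In the wider view another 21 combined events lay between 50 and 200 kb from the gene. The strongest FoxL2 event of the whole neighbourhood stood 101.4 kb upstream at 48769002, in Otx2os1. Its score of 996 ranked 10 among 7244 FoxL2 events, and the nearest event of another list was 7826 bp away. At 145.2 kb upstream FoxL2, FoxP3 and FoxA1 had events within 8 bp, at 48812829, 48812833 and 48812837. Their scores were 49, 72 and 135, at percentiles 17.8, 44.3 and 59.8 of their own lists. In Tmem260, FoxA1 at 48504785 with a score of 104 and FoxP3 at 48504804 with 117 were 19 bp apart.

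FoxA1 also had a group of events 175.7 to 179.4 kb upstream, outside any annotated gene. Its scores in the combined list were 499, 455, 391 and 48. The first, at 48843347, was called by anti-FLAG with scores of 205 and 321 at 24 and 48 h and by anti-FoxA1 with 325 and 576. On the other side, in Tmem260, the FoxA1 event at 48471291 scored 442. Anti-FLAG gave it 151 and 277 at 24 and 48 h, and anti-FoxA1 319 and 676. Of the 20 course positions between 50 and 200 kb, 11 were first called at 24 h, 9 at 48 h and none at 12 h. All 5 positions that FoxA1 held at 12 h were thus within 50 kb of Otx2.

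The genes whose events were most like those of Otx2 were found by the distance between log2(events + 1) within 50 kb, over the 11 lists with at least 20 nuclear events. They were Ptprk (distance 1.83), a receptor tyrosine phosphatase, Fnbp1 (2.01), a membrane-bending F-BAR protein, Pecam1 (2.04), the adhesion molecule CD31, Ninj2 (2.33), a cell surface adhesion protein, and Foxd3 (2.45), which encodes a Forkhead protein active in pluripotent cells. In the combined lists of FoxA1, FoxC1, FoxL2 and FoxP3, Ptprk had 10, 4, 6 and 3 events and Foxd3 12, 2, 4 and 4. Of these 5 genes, 4 had a site of all 4 factors within 50 kb, where 1.03% of all genes have one. Foxd3 had 2 and Fnbp1 none. The 5 genes were picked by their counts in these same lists, so their share is not an independent result. Otx2 had 12 FoxL2 events, against 6 each for Ptprk and Pecam1, the highest of the 5. Long genes such as Ptprk have wider windows under this rule.

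The other OTX family members had fewer events than Otx2, which was chosen by its events. Over all genes the median was 2 FoxA1 events, and 7.26% had a FoxC1, 30.9% a FoxL2 and 20.6% a FoxP3 event. Otx1, a related homeodomain factor of the brain, had 4 combined FoxA1 events within 50 kb, the nearest 5734 bp away, and no FoxC1, FoxL2 or FoxP3 event. Crx, the photoreceptor member, had no combined event, and the nearest FoxA1 event was 89947 bp away. Genes with no combined event within 50 kb numbered 4913 of 21887. In the courses, Otx1 had at most 3 events in a list, and Crx at most 1. Otx1 had 1 anti-FoxA1 event at 6 h, a time at which Otx2 had none.

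Lists of genes from the states and tissues tied to OTX2, including the naive state that cells leave, were also compared. The measure was how many of a list had an event within 50 kb. Of 16 genes of the formative and primed states, 15 had a FoxA1 event (73.4% of all genes), 12 a FoxP3 event (20.6%), 8 a FoxL2 event (30.9%) and 2 a FoxC1 event (7.26%). The most events were near Etv5, an ETS factor downstream of FGF (16 in the 4 lists), Lef1, a WNT effector (13), Tdgf1, the Nodal co-receptor (12), and Dnmt3b, a de novo DNA methyltransferase (10). Sall2 and Zic2 also had 10, and Dnmt3b was named first for its nearer event. These 6 genes were picked for their many events. Tdgf1 and Sall2, the 2 genes of the whole list with a FoxC1 event, had events of all 4 factors, where 3.19% of all genes did. The median gene of this list had 4.5 FoxA1 and 1.5 FoxP3 events, and the median over all genes was 2 and 0.

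Of the 10 genes of the naive state, all 10 had a FoxA1 event (73.4% of all genes) and a FoxP3 event (20.6%), 8 a FoxL2 event (30.9%) and 6 a FoxC1 event (7.26%). Otx2 had 30 combined events, against 23 each near Klf5 and Esrrb, 19 near Prdm14 and 18 near Nanog, all of them regulators of self-renewal and the naive genes with the most. Because Otx2 was chosen by its events, and Esrrb, a longer gene, has a wider window, these totals are not like for like. Otx2 had 5 FoxC1 and 12 FoxL2 events, against 4 FoxC1 events at Nanog and 6 FoxL2 events at Klf5, the highest of the naive genes. For FoxA1, Otx2 had 8 events, against 21 at Esrrb and 12 each at Klf5 and Prdm14. Klf4 also had 8, the other naive genes had fewer, and the median naive gene had 6. For FoxP3, Otx2 had 5 events, against 6 at Nanog and 5 at Klf5. Otx2 had 1 site of all 4 factors, Prdm14 had 1 and Nanog had 2, where 1.03% of all genes have one.

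Of 16 genes of the anterior organiser and head, 15 had a FoxA1 event (73.4% of all genes), 8 a FoxL2 event (30.9%), 3 a FoxP3 event (20.6%) and 1 a FoxC1 event (7.26%). The FoxP3 and FoxC1 counts were 18.75% and 6.25% of the list, near the share over all genes. The most were near Cer1 and Lefty1 (8 each), secreted Nodal antagonists, En2 (7), a midbrain homeodomain factor, and Wnt1 (6), the WNT ligand of the midbrain boundary. None of the 16 had a site of all 4 factors, which only 1.03% of all genes have within 50 kb. Of 12 genes of the retina, pineal gland and choroid plexus, 11 had a FoxA1 event (73.4% of all genes). A FoxC1, a FoxL2 and a FoxP3 event were each found at 2 of the 12, or 16.7%, where 7.26%, 30.9% and 20.6% of all genes had one. The most were near Prdm1 (17), a repressor active in photoreceptors and germ cells, which had all 4 factors, as did 3.19% of all genes. Mitf, a pigment cell factor, had 7, and Tph1, an enzyme of serotonin synthesis, had 4.

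None of these 5 lists was tested, since the lists were drawn up with earlier results known and genes are not replicates. No list of events has a replicate beside it, and the lists differ in length from 15 to 41726 events.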

How the data were processed

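The deposited lists hold ChIP-exo events on mm10, and per the file headers ChExMix made the calls. The submitters' processing notes also name BWA 0.7.17-r1188, SAMtools and Picard. Neither labels nor headers state the caller's version or thresholds, or how libraries were combined. Beside each position the authors deposited a score without a stated scale, in whole numbers up to 1000. The files hold no reads, so depth is unknown. Part of the series is left out of this account.

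Groups were read from the sample titles. The second empty control library names different antibodies in its title and characteristics. Gene positions came from RefSeq (GRCm38.p6, 21887 protein-coding genes), and Otx2's strand from RefSeq promoters. Computed here, with Python 3.11.15, pandas 2.3.3 and numpy 2.4.6, were event counts within 50 and 200 kb of either gene end, sites joined within 100 bp, score percentiles within a list (ties at their mean rank), and first calls. The counting and joining were checked on simulated events. The locus, members and gene lists were chosen with earlier results of these data known. Named genes were Otx2, its neighbours, the 5 genes most like it, the OTX family and up to 4 members of each list with the most events. Alternatives covered window, distance, score, list length, runs of events and the FoxA1 list.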

Additional observations from a re-analysis of the deposited data

How the results depend on the processing

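Event counts near Otx2 followed the window. At 20 kb the combined lists gave 4 for FoxA1, 2 for FoxC1, 7 for FoxL2 and 3 for FoxP3, and the courses 5 for anti-FLAG and 11 for anti-FoxA1. At 100 kb FoxA1 had 14. At 200 kb FoxA1 had 21, FoxP3 9, anti-FLAG 31 and anti-FoxA1 66. With scores at or above the list median FoxL2 had 5 and anti-FoxA1 24. With lists shortened to the length of the FoxC1 list by score, FoxA1 had 1, FoxL2 1, FoxP3 2, anti-FLAG 8 and anti-FoxA1 7. Leaving out runs of events moved none of the 6 counts past 1.5 times. The 18 sites became 29 with a shared base and 11 with scores at or above the list median. Sites of all 4 factors numbered 2 at 200 bp, 0 with a shared base and 0 with scores at or above the list median, since the FoxP3 event there is below its list's median, and 1 with either time-course FoxA1 list of 24 h. A shared base left 1 site of 2 or more factors. First calls at 12 h were 3 with scores at or above the list median. The share of genes with an event in the combined lists was 53.7%, 3.66%, 16.95% and 10.98% at 20 kb for FoxA1, FoxC1, FoxL2 and FoxP3, 84.8%, 12.2%, 46.3% and 32.8% at 100 kb, 74.2%, 7.69%, 32.3% and 21.6% from the gene interval, and 75.1%, 6.82%, 28.6% and 19.6% for genes of 5 to 20 kb. The restriction to those genes, the alternatives for sites of 2 or more factors and the anti-FoxA1 list for sites of all 4 were chosen after seeing the data. No replicate could be left out, because the combined lists cannot be taken apart and each course has 1 library per time. No paired analysis was possible because each list stands alone and no result comes from a test over samples.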
